A study of Mus musculus with 10 samples.

Results

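Immune checkpoint genes encode surface receptors and ligands that raise or lower the response of a T cell after its antigen receptor is engaged. The genes described here are those of a list of 10 symbols, the receptor genes Ctla4, Pdcd1, Lag3, Havcr2, Tigit, Icos, Btla and Cd160 and the ligand genes Cd274 and Pdcd1lg2. They were found by symbol. Rows were found for 9 of the 10 among 19025 genes, and Tigit was not analysed here. Where a gene had more than 1 row its highest value was used, which concerned Btla with 2 rows.

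The receptors fall into families. CTLA-4, ICOS, PD-1 (the product of Pdcd1) and BTLA belong to the CD28 family of the immunoglobulin superfamily. CTLA-4 competes with the costimulator CD28 for the ligands CD80 and CD86 and lowers activation, while ICOS binds ICOS ligand on antigen-presenting cells and supports helper T cell function. PD-1 is engaged by PD-L1 (Cd274) and PD-L2 (Pdcd1lg2), BTLA and CD160 bind the TNF receptor family protein HVEM (Tnfrsf14), LAG-3 is a CD4 homologue that binds MHC class II, and TIM-3 (Havcr2) binds galectin-9 among other ligands. Several of these receptors are induced by activation and are known for high expression on regulatory or chronically stimulated T cells.

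The libraries came from C57BL/6 mouse cells in 5 groups of 2 libraries each. TSA-treated Th2 cells were splenic CD4 T cells cultured for 5 days with IL-2 (15 ng/ml) and IL-4 (10 ng/ml), to which the histone deacetylase inhibitor trichostatin A (TSA, 10 nM) was added on day 2 for the last 3 days. Untreated Th2 cells were cultured in the same way without TSA, and no vehicle is named for them. CD4 T cells and B220 B cells were taken from spleens of mice aged 6 to 8 weeks by magnetic beads, with a stated purity above 98%. ES cells were of the line B6N-22, grown with leukemia inhibitory factor on mitotically inactivated embryonic fibroblasts. Nothing in the labels ties a replicate to its own animal or culture, and the spread behind each p-value may therefore be technical. Sex is not stated either.

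Values are FPKM, fragments scaled to transcript length and to the size of the library, so that levels of different genes can be compared. The 2 libraries of CD4 T, of B and of ES cells differed by no more than the sampling of reads, with an SD of the log2 ratio of 0.0465, 0.0453 and 0.0419, against 0.323 and 0.308 in the TSA-treated and untreated Th2 groups. Each of those 3 pairs was averaged into a single sample, which leaves n = 2 for both Th2 groups and n = 1 elsewhere. Markers of the labelled cell type were mostly high in each group, but markers of other cells were present too. Over 10 T cell markers the summed level was 2095 FPKM in TSA-treated Th2, 2389 in Th2 and 2924 in CD4 T cells, over 8 B cell markers it was 4985 in B cells, and over 8 pluripotency markers 2828 in ES cells. The 8 Th2 markers summed to 617 FPKM in TSA-treated Th2, 509 in Th2 and 38.3 in CD4 T cells. Of these, 7 were higher and 1 lower in both Th2 than in both CD4 T libraries. In TSA-treated against untreated Th2, 1 of the 8 was higher in both libraries, Il10, at 401 against 136.5 FPKM. Another 5 were lower in both, among them Gata3, at 49.1 against 89.2, and Il5, at 3.00 against 22.9. The ES libraries also held fibroblast markers, at 614 FPKM summed over 8 genes. Ribosomal protein genes took 22.2% and 22.6% of all FPKM in TSA-treated Th2, 17.1% and 18.8% in Th2, and 8.51% to 12.1% in the other libraries.

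Icos and Ctla4 led the checkpoint transcripts in both Th2 groups, Btla led in CD4 T and B cells, and Havcr2 led at a low level in ES cells. Summed over the 9 genes, the level was 581 FPKM in TSA-treated Th2, 357 in Th2, 263 in CD4 T, 495 in B and 3.40 in ES cells. Icos made up 42.0% of this sum in TSA-treated Th2 and 66.5% in untreated Th2 cells, whereas Btla made up 37.1% in CD4 T and 88.9% in B cells. At least 5 FPKM was reached by 7 of the 9 genes in TSA-treated Th2, 4 in Th2, 8 in CD4 T, 4 in B and 0 in ES cells. Transcripts of Havcr2, at 1.33 and 1.61 FPKM, were the highest of the 9 in the ES libraries.

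**Figure D1:**
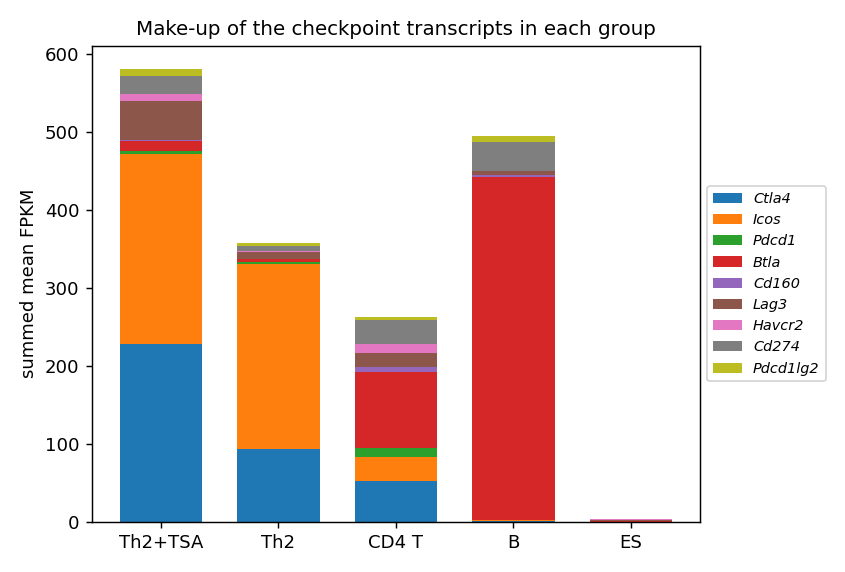
Summed mean FPKM of the 9 checkpoint genes in each group (y axis), with each gene as a coloured segment. Icos and Ctla4 fill most of the bars of both Th2 groups, Btla fills 88.9% of the B cell bar, and the ES bar stands at 3.40 FPKM.

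Ctla4 (chr1:60909025-60915832, GRCm38) was led by the Th2 groups. It had 184 and 272 FPKM in TSA-treated Th2, 62.9 and 123 in Th2, 52.6 and 51.6 in CD4 T, 1.25 and 1.17 in B, and 0.02 and 0.03 in ES cells. The groups did not overlap, but the untreated Th2 libraries differed more from each other than their mean did from CD4 T cells. Icos (chr1:60960773-61000322), which lies 44.9 kb away, had 262 and 227 FPKM in TSA-treated Th2, 262 and 213.5 in Th2, 31.4 and 31.5 in CD4 T, 0.49 and 0.39 in B, and 0.05 and 0.03 in ES cells. The libraries of both Th2 groups overlapped, and all stood above every other library.

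Pdcd1 (chr1:94038305-94052553) had its highest level in CD4 T cells. Its values were 2.99 and 4.99 FPKM in TSA-treated Th2, 2.87 and 3.27 in Th2, 10.4 and 11 in CD4 T, 0.48 and 0.20 in B, and 0.01 in both ES libraries. Again the Th2 groups overlapped. Btla (chr16:45223705-45252895) had 12.9 FPKM in both TSA-treated Th2 libraries, 3.52 and 2.66 in Th2, 98.3 and 96.6 in CD4 T, 439 and 441 in B, and 0.39 and 0.48 in ES cells. This gene separated all 5 groups, with B cells highest. Cd160 (chr3:96798763-96829351), the other HVEM receptor, had 0.32 and 0.43 FPKM in TSA-treated Th2, 0.53 and 0.28 in Th2, 7.32 and 7.53 in CD4 T, 2.30 and 2.24 in B, and 0.15 and 0.07 in ES cells, so that it was below 1 FPKM in all Th2 libraries.

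Lag3 (chr6:124904359-124912434) stood highest in TSA-treated Th2 cells, with 35.3 and 64.6 FPKM, against 7.48 and 11.6 in Th2, 17.0 and 17.8 in CD4 T, 5.16 and 5.24 in B, and 1.17 and 0.79 in ES cells. Havcr2 (chr11:46454931-46481255) had 9.88 and 8.37 FPKM in TSA-treated Th2, 1.14 and 0.66 in Th2, 10.8 and 11.2 in CD4 T, 0.69 and 0.72 in B, and 1.33 and 1.61 in ES cells. Only CD4 T and TSA-treated Th2 libraries exceeded 2 FPKM for this gene, and the untreated Th2 and B libraries overlapped.

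The ligand genes lie 22.8 kb apart. Cd274 (chr19:29362107-29388095) had 22.7 and 25.1 FPKM in TSA-treated Th2, 7.10 and 5.54 in Th2, 30.63 and 30.64 in CD4 T, 38.3 and 36.8 in B, and 0.36 and 0.33 in ES cells. Its annotated interval overlaps the genes Plgrkt, over the shared stretch chr19:29362107-29367292, and Gm36043, a long non-coding RNA gene with no row, over chr19:29378749-29384951. The use of strand is not stated, so reads from these stretches cannot be told apart. The Cd274 promoter window printed below ends at chr19:29367437, past the stretch shared with Plgrkt. Plgrkt had 87.5 FPKM in TSA-treated Th2, 45.0 in Th2, 149 in CD4 T, 146 in B and 15.2 in ES cells. The part of Plgrkt reads in the Cd274 values was not tested. Pdcd1lg2 (chr19:29410919-29472927) had 9.50 and 8.77 FPKM in TSA-treated Th2, 4.57 and 2.77 in Th2, 4.67 and 4.19 in CD4 T, 7.25 and 7.66 in B, and 0.01 in both ES libraries. For Pdcd1lg2 the CD4 T and Th2 libraries overlapped, and the other groups were separate.

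**Figure D2:**
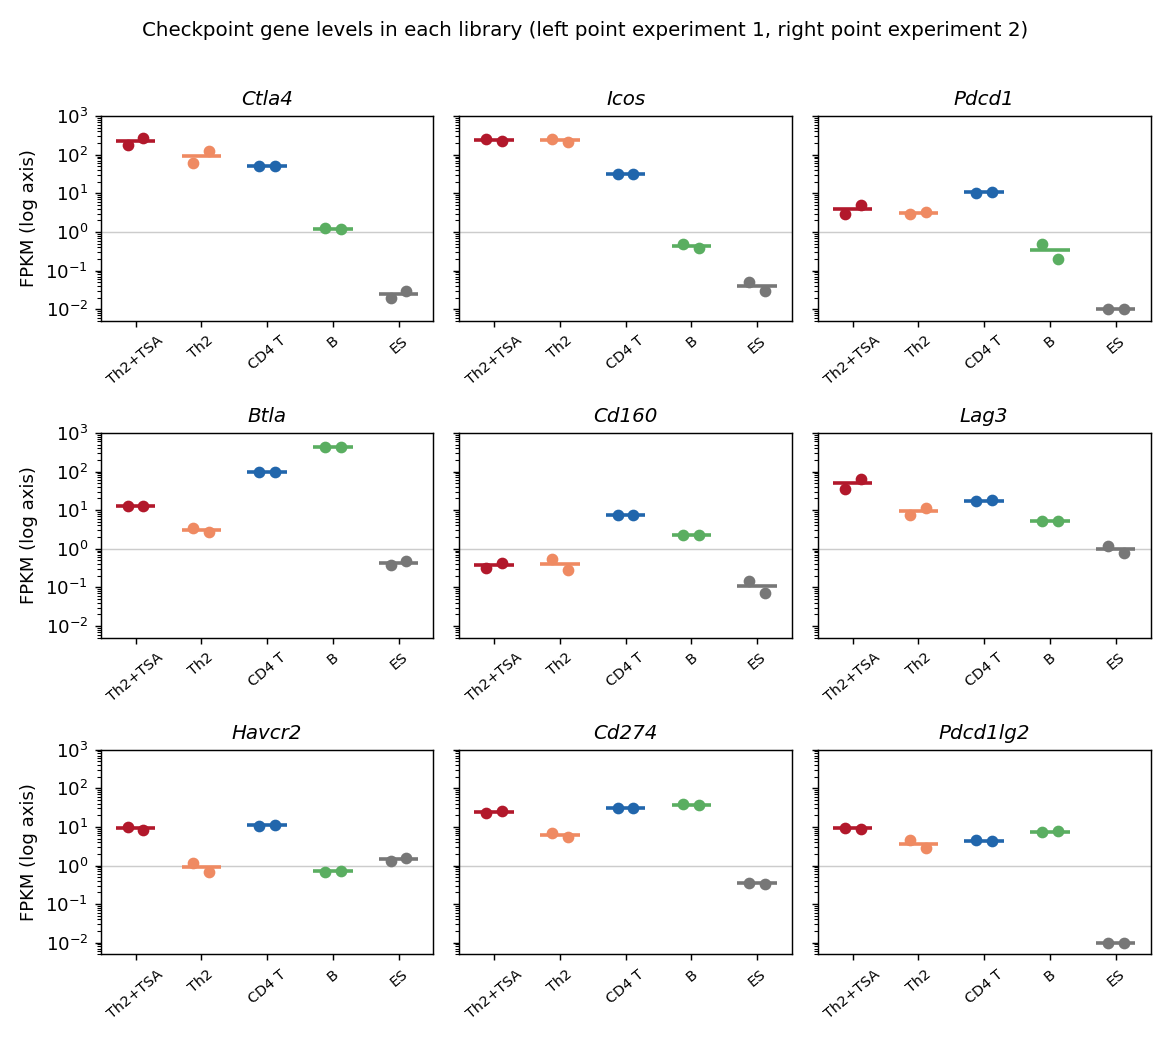
FPKM of each checkpoint gene (log axis) in the 2 libraries of each group, with the group mean as a bar and a grey line at 1 FPKM. Btla, Cd274, Ctla4, Havcr2, Lag3 and Pdcd1lg2 stand higher in both TSA-treated than in both untreated Th2 libraries, while Icos is at the same height in both groups.

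The promoters of Havcr2, Btla and Cd274 are shown because these 3 genes were called higher together in TSA-treated than in untreated Th2 cells. RefSeq promoter sequence of GRCm38.p6 was found for 7 of the 9 genes. The 250 bases before the transcript start used in that promoter table are printed 5′ to 3′ on the sense strand, in lower case. For Btla and Cd274 this start lies inside the gene interval given above, downstream of its first base. Capitals mark matches on either strand to 6 motifs, and matches to different motifs may overlap. The motifs were TTCNNNGAA as the STAT type, GGAAA as the core of NFAT sites, TGANTCA as the AP-1 type, GATAA as the GATA type, GGGCGG as the GC box and TATAAA as the TATA box.
Havcr2, chr11:46454681-46454930, plus strand: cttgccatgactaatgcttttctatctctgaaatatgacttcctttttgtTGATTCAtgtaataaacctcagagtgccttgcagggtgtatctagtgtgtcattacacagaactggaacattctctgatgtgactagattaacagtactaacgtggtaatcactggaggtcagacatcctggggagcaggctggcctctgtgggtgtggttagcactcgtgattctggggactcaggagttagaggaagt
Btla, chr16:45224087-45224336, plus strand: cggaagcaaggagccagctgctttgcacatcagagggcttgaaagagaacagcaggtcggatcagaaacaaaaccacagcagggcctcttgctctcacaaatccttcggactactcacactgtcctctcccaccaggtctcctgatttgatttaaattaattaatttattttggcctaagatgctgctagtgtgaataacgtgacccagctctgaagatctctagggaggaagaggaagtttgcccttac
Cd274, chr19:29367188-29367437, plus strand: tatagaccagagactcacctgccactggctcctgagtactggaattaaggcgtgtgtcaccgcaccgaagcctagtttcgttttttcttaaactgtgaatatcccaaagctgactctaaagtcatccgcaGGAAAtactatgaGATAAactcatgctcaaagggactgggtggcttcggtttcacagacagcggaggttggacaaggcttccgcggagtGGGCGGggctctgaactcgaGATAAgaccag
The 3 windows shared no match. Havcr2 had 1 AP-1 match, a motif found in 6.7% of 32851 promoters of this length. Btla had no match to any of the 6 motifs. Cd274 had 1 match to GGAAA, found in 55.6% of promoters, 2 to GATAA, found in 22.6%, and 1 to GGGCGG, found in 32.7%. The windows held 2 CpG dinucleotides for Havcr2, 4 for Btla and 11 for Cd274, against a median of 6 over all promoters with quartiles of 2 and 16. A match describes letters and is not evidence of binding.

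TSA-treated Th2 cells were compared with untreated Th2 cells to see which checkpoint genes differed after 3 days of histone deacetylase inhibition. Havcr2, Btla and Cd274 rose. Havcr2 averaged 9.13 ± 1.07 FPKM in TSA-treated Th2 and 0.900 ± 0.339 in Th2 cells (SD, n = 2 each), a ratio of 10.1 and a log2 fold change of 2.42 (SE 0.18, limma adjusted p = 0.0297). Btla averaged 12.9 ± 0.014 FPKM in TSA-treated Th2 and 3.09 ± 0.608 in Th2 cells (log2 fold change 1.77, SE 0.14, limma adjusted p = 0.0301). Cd274 averaged 23.9 ± 1.69 FPKM in TSA-treated Th2 and 6.32 ± 1.10 in Th2 cells (log2 fold change 1.77, SE 0.15, limma adjusted p = 0.0319). All fold changes were taken after adding 1 to FPKM, so the change of a low gene such as Havcr2 is understated.

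Of 9 genes tested, 3 were higher and 0 lower at an adjusted p below 0.05, against 9.26% higher and 4.14% lower (13.4% in either direction) among all 12907 genes. At an unadjusted p below 0.05 there were 5 of the 9 and 36.9% of all genes. In 6 of 9 genes both treated libraries stood above both untreated ones, which held for 36.7% of all genes, and in 0 of 9 below them, which held for 27.1%. The median log2 fold change was 1.34 over the 9 genes and 0.02 over all genes. After quantile normalization 5 of the 9 were higher, Lag3 and Pdcd1lg2 being added. When any 1 of the 4 Th2 libraries was left out, none of the 9 was called (limma adjusted p from 0.0859 to 0.207 for Havcr2), and between 0 and 273 of all genes were called.

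The other 6 genes did not pass the test. Lag3 averaged 49.9 ± 20.7 FPKM in TSA-treated Th2 and 9.54 ± 2.91 in Th2 cells, with a log2 fold change of 2.24 and a 95% interval of 0.95 to 3.53 (limma adjusted p = 0.0607). Pdcd1lg2 averaged 9.13 ± 0.516 FPKM in TSA-treated Th2 and 3.67 ± 1.27 in Th2 cells (log2 fold change 1.14, limma adjusted p = 0.073). Ctla4 averaged 228 ± 62.1 FPKM in TSA-treated Th2 and 92.8 ± 42.2 in Th2 cells (log2 fold change 1.34, limma adjusted p = 0.141). In these 3 genes both treated libraries exceeded both untreated ones. Icos averaged 244 ± 24.4 FPKM in TSA-treated Th2 and 237.5 ± 34.0 in Th2 cells, a log2 fold change of 0.04 with a 95% interval of -0.42 to 0.51. The intervals were -0.50 to 1.03 for Pdcd1 and -0.38 to 0.33 for Cd160.

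Markers of other cells were measured beside these genes. The 8 B cell markers summed to 18.9 and 45.5 FPKM in TSA-treated Th2 and 4.55 and 6.55 in Th2 libraries, and all 8 were higher in both treated libraries. The 7 NK markers summed to 12.8 and 6.60 FPKM in TSA-treated Th2 and 5.15 and 1.59 in Th2 libraries. Eomes and Fasl made up most of these sums, Eomes at 9.14 and 3.80 in TSA-treated Th2 and 3.17 and 0.75 in Th2 libraries. Of the 7 markers, 4 were higher and 0 lower in both treated libraries, and Ncr1 was at 0 in both groups. Btla in TSA-treated Th2 cells stood at 2.93% of its B cell level, while the 8 B cell markers stood at 0.043% to 1.03% of theirs (median 0.521%). In untreated Th2 cells Btla stood at 0.702% of its B cell level, and the 8 markers at up to 0.277% of theirs (median 0.032%). The 7 dendritic cell markers summed to 0.20 and 0.54 FPKM in TSA-treated Th2 and 0.17 and 0.24 in Th2 libraries, with Siglech and Cd209a listed at 0 in both groups. The 10 macrophage and monocyte markers summed to 3.53 and 4.55 FPKM in TSA-treated Th2 and 9.30 and 9.26 in Th2 libraries. Most of that difference was Emr1, at 0.45 in TSA-treated Th2 and 6.04 in Th2 cells. Of the 10 markers, 2 were higher and 2 lower in both treated libraries. The 6 follicular helper T cell markers summed to 95.7 and 128 FPKM in TSA-treated Th2 and 55.3 and 67.9 in Th2 libraries, with 5 of the 6 higher in both treated libraries. Most of that sum was Sh2d1a, at 90.0 in TSA-treated Th2 and 57.4 in Th2 cells. The list summed to 567 FPKM in B cells, so it does not separate follicular helper T cells from B cells. The 2 CD8 T cell markers summed to 9.87 and 14.7 FPKM in TSA-treated Th2 and 7.41 and 7.76 in Th2 libraries, and 5 plasma cell markers to 474 and 496 in TSA-treated Th2 and 407 and 413 in Th2 libraries. The plasma cell difference was mostly Irf4, at 192 in TSA-treated Th2 and 94.2 in Th2 cells. Of the 5 plasma cell markers, 2 were higher and 1 lower in both treated libraries. The 10 regulatory T cell markers summed to 731 and 728 FPKM in TSA-treated Th2 and 1103 and 1261 in Th2 libraries. Most of that sum was Il2ra, at 310 in TSA-treated Th2 and 682 in Th2 cells, and Tnfrsf18, at 303 and 400. Of the 10 markers, 4 were higher and 2 lower in both treated libraries, and Foxp3 was at 0.89 in TSA-treated Th2 and 0.84 in Th2 cells. The part of these markers and of the ribosomal protein share in the checkpoint results was not tested.

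Untreated Th2 cells were set against the CD4 T cells from which such cultures start, to see which checkpoint genes differ after Th2 culture. Icos rose, and Btla, Cd160, Havcr2, Cd274 and Pdcd1 fell. Icos averaged 237.5 ± 34.0 FPKM in Th2 cells (SD, n = 2) and 31.5 in CD4 T cells, with a log2 fold change of 2.87 (SE 0.18, limma adjusted p = 0.00376). Btla showed the largest difference, at 3.09 ± 0.608 FPKM in Th2 and 97.4 in CD4 T cells, 31.5-fold lower in Th2 (log2 fold change -4.60, SE 0.17, limma adjusted p = 0.00166). Cd160, at 0.405 ± 0.177 FPKM in Th2 and 7.43 in CD4 T cells, fell by 2.59 on the log2 scale (limma adjusted p = 0.003), and Havcr2, at 0.900 ± 0.339 FPKM in Th2 and 11 in CD4 T cells, fell by 2.67 (limma adjusted p = 0.00557). Cd274 was 4.85-fold lower in Th2 cells and Pdcd1 3.49-fold lower (limma adjusted p = 0.00624 and 0.0288).

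With 1 gene higher and 5 lower, the 9 genes stood beside 16.9% higher and 38.1% lower (54.9% in either direction) among 12367 genes tested in this comparison, so that being lower was common. Both Th2 libraries stood above both CD4 T libraries for 2 of the 9 genes and below them for 6, against 31.8% and 58.1% of all genes. The median log2 fold change was -1.53 over the 9 genes and -0.28 over all genes. That overall shift was 0.02 after quantile normalization and -0.04 after median-ratio scaling, and under both the call of Pdcd1 was lost (limma adjusted p = 0.0508 and 0.0515). With either Th2 library left out, 4 genes were lower. Ctla4 averaged 92.8 ± 42.2 FPKM in Th2 and 52.1 in CD4 T cells, with a 95% interval of the log2 fold change from -0.94 to 2.43. The interval was -2.41 to 0.74 for Lag3 and -1.16 to 0.67 for Pdcd1lg2. CD4 T cells enter as a single sample, whose spread is taken from the Th2 groups. The deposited Th2 and CD4 T values also differ in how the rows of a gene were filled, which cannot be told apart from culture. Btla has 2 rows, and its highest row may not mean the same in both.

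The CD4 T libraries held transcripts of cells that the Th2 libraries held little of. B cell markers summed to 5.55 FPKM in Th2 and 285 in CD4 T cells, macrophage and monocyte markers to 9.28 in Th2 and 465 in CD4 T cells, dendritic cell markers to 0.20 in Th2 and 180.0 in CD4 T cells, and NK markers to 3.37 in Th2 and 26.1 in CD4 T cells, with Ncr1, Pax5, C1qa, C1qb and C1qc among those listed at 0 in Th2. Foxp3, the lineage factor of regulatory T cells, was at 0.84 ± 0.396 FPKM in Th2 and 30.7 in CD4 T cells, and 6 of the 10 regulatory T cell markers were lower in both Th2 than in both CD4 T libraries, the other 4 being higher. Their sum, 1182 FPKM in Th2 and 355 in CD4 T cells, was mostly that of Il2ra, at 682 in Th2 and 20.0 in CD4 T cells, and Tnfrsf18, at 400.0 in Th2 and 66.8 in CD4 T cells, which activation also induces. The 6 follicular helper markers summed to 61.6 FPKM in Th2 and 134 in CD4 T cells, with 5 lower in both Th2 libraries. As they summed to 567 FPKM in B cells, they do not separate follicular helper T cells from B cells. In bulk RNA, fewer cells of a type and less RNA per cell cannot be told apart. Btla in CD4 T cells stood at 22.1% of its B cell level, and the 8 B cell markers at 4.707% to 6.999% of theirs. The part of the B cell markers in the lower values of Btla and Cd274 was not tested. Nor was the part of the macrophage, dendritic, NK, follicular helper and regulatory T cell markers in those of Havcr2, Cd274, Cd160 and Pdcd1 tested. The part of other cells was likewise not tested for the related genes set against CD4 T cells below.

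TSA-treated Th2 cells were also set against CD4 T cells, a comparison that shares samples with both of the above. The difference in how rows were filled and the markers of other cells in the CD4 T libraries apply here too. The part of those markers was not tested. Icos rose (log2 fold change 2.91, limma adjusted p = 0.00382), and Btla, Cd160 and Pdcd1 fell by 2.82, 2.62 and 1.26 on the log2 scale (limma adjusted p = 0.00359, 0.00302 and 0.0418). That was 1 gene higher and 3 lower, against 20.2% higher and 36.8% lower (57.0% in either direction) of 12367 genes. Both TSA-treated libraries stood above both CD4 T libraries for 4 genes and below them for 5, against 34.9% and 54.6% of all genes. Havcr2, at 9.13 ± 1.07 FPKM in TSA-treated Th2 and 11 in CD4 T cells, had a log2 fold change of -0.25 with a 95% interval of -0.94 to 0.43, and Cd274, at 23.9 ± 1.69 FPKM in TSA-treated Th2 and 30.6 in CD4 T cells, one of -0.35 with an interval of -0.93 to 0.24. Ctla4 was 4.37-fold and Lag3 2.87-fold higher without passing the test (limma adjusted p = 0.0503 and 0.0976). Both passed it after quantile normalization, as did Pdcd1lg2, while the call of Pdcd1 was lost there and under 4 other settings. With CD4 T replicate 1 left out Ctla4 passed too, and 2 genes were higher.

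**Figure D3:**
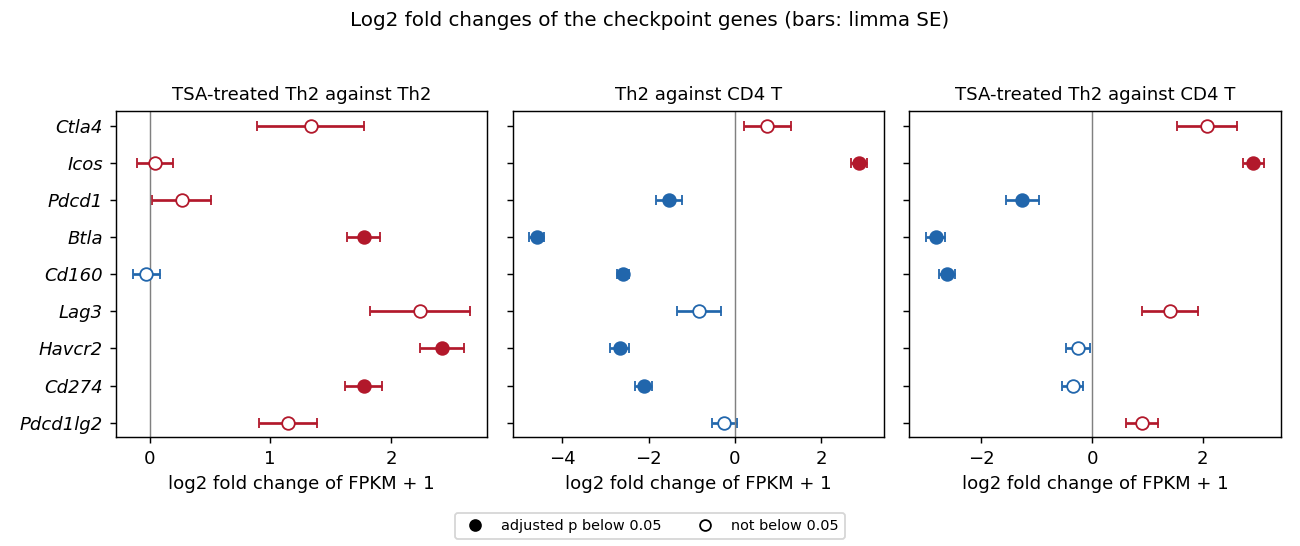
Log2 fold change of FPKM + 1 for each checkpoint gene (x axis) in 3 comparisons, with limma standard errors as bars. Filled points passed an adjusted p of 0.05, red marks values above 0 and blue values below 0. Havcr2, Btla and Cd274 are filled to the right in TSA-treated against untreated Th2 cells and filled to the left in Th2 against CD4 T cells, 2 comparisons that share the untreated Th2 samples.

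Splenic CD4 T cells were set against splenic B cells for their checkpoint genes. With 1 sample a side there is no test, and genes were taken by size, which asked for a log2 fold change of 2 or more and a level of 5 FPKM or more on the higher side. Ctla4 was higher in CD4 T cells, at 52.1 FPKM in CD4 T cells against 1.21 in B cells, as was Icos, at 31.5 in CD4 T cells against 0.44 in B cells. Pdcd1, at 10.7 FPKM in CD4 T cells against 0.34 in B cells, and Havcr2, at 11 in CD4 T cells against 0.705 in B cells, were higher too. Btla was lower, at 97.4 FPKM in CD4 T cells against 440.2 in B cells. These 4 higher and 1 lower of 9 compare with 2.56% and 1.7% (4.27% in either direction) of all 12907 genes. Cd274 and Pdcd1lg2 were short of the rule, at 30.6 and 4.43 FPKM in CD4 T and 37.5 and 7.46 in B cells, as were Lag3, at 17.4 in CD4 T cells against 5.20 in B cells, and Cd160, at 7.43 in CD4 T cells against 2.27 in B cells.

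Against ES cells, 8 of 9 genes passed the size rule upward in CD4 T cells, where 10.8% of all genes did (22.6% passed in either direction). Pdcd1lg2 was the exception, at 4.43 FPKM in CD4 T and 0.01 in ES cells, because it stayed under 5 FPKM. In B cells 3 of 9 genes passed upward against ES cells, namely Btla, Cd274 and Pdcd1lg2, where 9.45% of all genes did (22.8% in either direction). No checkpoint gene was lower by the rule in either comparison, where 11.9% of all genes in CD4 T and 13.4% in B cells were lower than in ES cells. The part of the markers of other cells in the CD4 T, B and ES libraries was not tested here either.

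Ligands and binding partners of the checkpoint proteins did not all go one way after TSA. Of 14 tested, 2 were higher and 1 lower in TSA-treated than in untreated Th2 cells, with a list median of 0.38 on the log2 scale, beside 9.26% higher and 4.14% lower among all genes. Cd80, which encodes a ligand shared by CTLA-4 and CD28, rose to 10.5 ± 0.552 FPKM, against 2.00 ± 0.085 in Th2 cells (limma adjusted p = 0.0251). Rgmb, whose product binds PD-L2, rose to 1.75 ± 0.212 FPKM, against 0.705 ± 0.007 in Th2 cells, and Tnfsf14, the HVEM ligand LIGHT, fell to 2.76 ± 0.396 FPKM, against 6.21 ± 0.099 in Th2 cells (limma adjusted p = 0.036 for both). In Th2 against CD4 T cells 0 of 13 were higher and 8 lower, with a median of -1.13, beside 16.9% higher and 38.1% lower among all genes. The largest falls were those of Cd86, Tnfrsf14, Rgmb and Icosl. Cd86 was at 0.79 ± 0.255 FPKM in Th2 and 22.4 in CD4 T cells, and the HVEM gene Tnfrsf14 at 8.66 ± 1.46 in Th2 and 87.4 in CD4 T cells. The ICOS ligand gene Icosl was at 6.60 ± 0.686 FPKM in Th2 and 35.1 in CD4 T cells. In B cells Cd86 was at 32.6 and Icosl at 185 FPKM, above CD4 T cells, while Tnfrsf14 was at 48.2 and Rgmb at 1.15, below them. The part of B cells and other cells in these falls was not tested.

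Related receptors of the immunoglobulin superfamily included 2 of 15 that rose with TSA and 0 that fell, close to the 9.26% and 4.14% of all genes. They were Cd28, the activating counterpart of Ctla4, at 132 ± 9.38 FPKM in TSA-treated Th2 and 54.0 ± 9.44 in Th2 cells (limma adjusted p = 0.0397), and Cd200, which encodes a ligand of an inhibitory myeloid receptor, at 12.5 ± 0.177 FPKM in TSA-treated Th2 and 1.13 ± 0.346 in Th2 cells (limma adjusted p = 0.0271). In Th2 against CD4 T cells 2 of 14 rose and 8 fell, beside 16.9% and 38.1% of all genes. Cd200, Cd226, Cd244 and Cd96 fell most, the second and the last of these encoding receptors that share ligands with TIGIT. In B cells Cd200 was at 29.5 FPKM, above the 16.6 of CD4 T cells, while Cd226, Cd244 and Cd96 were lower in B than in CD4 T cells.

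TNF receptor family costimulators, listed together with the ligand gene Cd40lg, showed 0 rises and 1 fall among 7 genes with TSA, beside 9.26% and 4.14% of all genes. The fall was that of the death receptor 3 gene Tnfrsf25, at 1.57 FPKM in TSA-treated Th2 and 7.72 in Th2 cells (limma adjusted p = 0.0282). In Th2 against CD4 T cells 4 of the 7 rose and 3 fell, beside 16.9% and 38.1% of all genes. Tnfrsf8 (CD30) was at 222 FPKM in Th2 and 1.51 in CD4 T cells, Tnfrsf9 (4-1BB) at 213 in Th2 and 17.0 in CD4 T cells, and Tnfrsf4 (OX40) at 337 in Th2 and 30.3 in CD4 T cells. Cd27, a costimulator of resting T cells, was at 12.3 FPKM in Th2 and 243 in CD4 T cells.

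Among 15 signalling and trafficking partners 0 rose and 3 fell with TSA, beside 9.26% and 4.14% of all genes. Trat1, an adaptor that aids the transport of CTLA-4 to the surface, was at 14.5 FPKM in TSA-treated Th2 and 92.5 in Th2 cells (log2 fold change -2.60, limma adjusted p = 0.0445). The lipid phosphatase gene Inpp5d (SHIP-1) was at 25.6 FPKM in TSA-treated Th2 and 45.9 in Th2 cells, and Csk, a kinase that restrains Lck, at 117 in TSA-treated Th2 and 153 in Th2 cells (limma adjusted p = 0.0414 and 0.0472). In Th2 against CD4 T cells 1 rose and 6 fell, near the 38.1% of all genes that fell, with 16.9% rising. Fyn, Ptpn6, Pik3r1 and Lrba fell most, and Ptpn6, which encodes the phosphatase SHP-1, was at 41.1 ± 0.707 FPKM in Th2 and 171 in CD4 T cells. In B cells Ptpn6 was at 458 FPKM, above CD4 T cells, while Fyn, Pik3r1 and Lrba were lower in B than in CD4 T cells. The part of B cells and other cells in these falls was not tested.

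Of 23 transcription regulators reported for checkpoint genes, 9 rose and 1 fell with TSA, with a list median of 0.53, beside 9.26% and 4.14% of all genes. Tox2, an HMG-box factor gene, was at 6.23 ± 1.99 FPKM in TSA-treated Th2 and 0.215 ± 0.064 in Th2 cells (limma adjusted p = 0.0324). Tbx21, the gene of the Th1 factor T-bet, was at 22.9 ± 0.714 FPKM in TSA-treated Th2 and 7.44 ± 0.516 in Th2 cells, and Bach2, the gene of a repressor of effector programmes, at 7.02 ± 0.679 in TSA-treated Th2 and 2.06 ± 0.035 in Th2 cells (limma adjusted p = 0.0282 and 0.0301). In Th2 against CD4 T cells 5 rose and 13 fell, beside 16.9% and 38.1% of all genes. The largest changes were falls of Nr4a1, Tox, Foxp3 and Bcl6. Nr4a1 was at 2.08 FPKM in Th2 and 69.3 in CD4 T cells, Tox at 0.22 in Th2 and 21.8 in CD4 T cells, and Bcl6 at 0.22 in Th2 and 13.1 in CD4 T cells. In B cells Bcl6 was at 26.8 FPKM, above CD4 T cells, while Nr4a1, Tox and Foxp3 were lower in B than in CD4 T cells. The part of B cells and other cells in these falls was not tested.

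**Figure D4:**
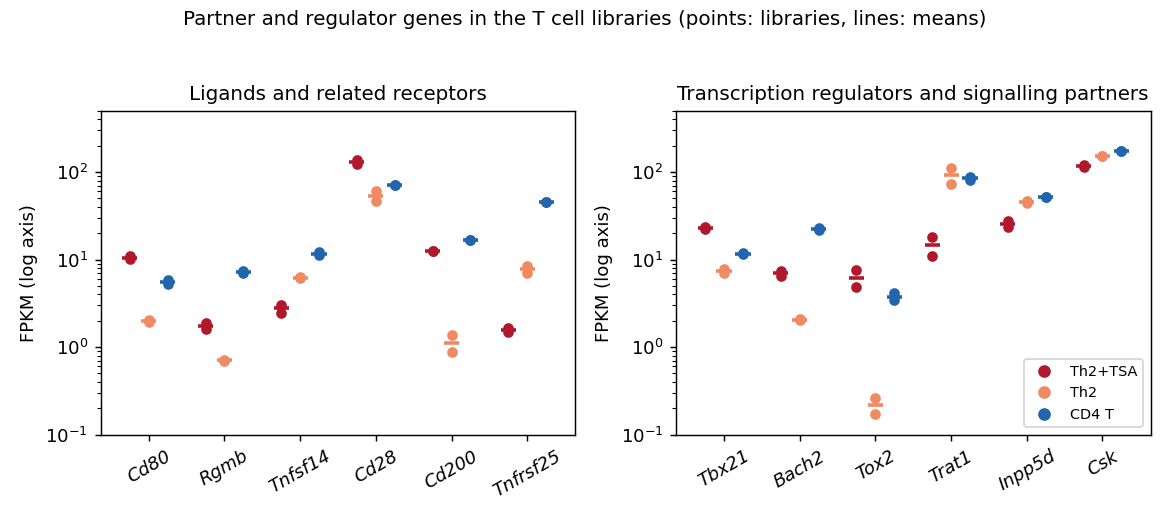
FPKM (log axis) of genes called in TSA-treated against untreated Th2 cells, up to 4 from each list of ligands, related receptors, TNF receptors, signalling partners and regulators, in the libraries of TSA-treated Th2, Th2 and CD4 T cells. Points are libraries and lines are means. Cd80, Cd28, Tbx21 and Tox2 are higher in both TSA-treated libraries than in both untreated and both CD4 T libraries.

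Several checkpoint genes have immune genes as their nearest coding neighbours. Ctla4 lies 135.7 kb from Cd28 and 44.9 kb from Icos, and in TSA-treated against untreated Th2 cells the log2 fold changes were 1.34 for Ctla4, 1.28 for Cd28 and 0.04 for Icos. Lag3 lies 16.1 kb from Cd4 (log2 fold change 0.37, limma adjusted p = 0.0875) and 1.2 kb from Ptms, a thymosin family gene, which rose (1.36, limma adjusted p = 0.0342). Cd200, 129.2 kb from Btla, rose with it. Neighbours that did not pass the test were Med7, 12.2 kb from Havcr2 (0.79, limma adjusted p = 0.0625), and Atg3, 35.2 kb from Btla (0.41). Rnf115 and Pdzk1 beside Cd160 (-0.02 and -0.06) did not pass either. The same held for 2 distant ones, Fam174a, 1261.1 kb from Pdcd1 (0.58), and Pard3b, 638.3 kb from Icos (-0.05).

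The genes with the most similar pattern were found by the Pearson correlation of log2(FPKM + 1) over the 7 samples among 10416 genes. With 5 groups in 7 samples such values describe group levels, and all points of a gene share their libraries. Closest to Ctla4 were Cela1, Batf3 and Klhl25 (r of 0.998, 0.995 and 0.990), and to Icos Ndfip1, Akr1c13 and Gosr2 (0.996 to 0.992). Pdcd1 was closest to Prkch, Cln3 and Zbtb7b (0.991 to 0.986), Btla to Exoc6, Pou2f2 and Tlr2 (0.996 to 0.992), and Cd160 to Ccr3, Crtam and Ddx60 (0.995 to 0.992). Lag3 was closest to Tex261, Sv2a and Pla2g16 (0.985 to 0.980), and Havcr2 was closest to Nt5e, with Clint1 among the next (0.979 and 0.954). Plgrkt, which Cd274 overlaps, and Samhd1 were among the genes nearest to Cd274 (0.986 and 0.985). Pdcd1lg2 was closest to Gbp3, Prps2 and Stat2 (0.991 to 0.982).

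Nt5e, which encodes the ecto-enzyme CD73, had 8.59 FPKM in TSA-treated Th2, 0.62 in Th2, 17.1 in CD4 T, 0.84 in B and 1.53 in ES cells, so that like Havcr2 it was high in CD4 T and TSA-treated Th2 cells. Between checkpoint genes the highest correlations were 0.967 for Ctla4 with Icos and 0.915 for Cd274 with Pdcd1lg2, both of them chromosomal neighbours, and the lowest was -0.27 for Icos with Btla.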

How the data were processed

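RNA-seq of 10 mouse libraries gave the values, with 2 libraries in each of 5 groups read from the sample titles. The authors deposited 1 FPKM value per transcript row, with 21035 rows per file. The submitters' processing notes list TopHat 1.3.2, Bowtie 0.12.8, Cufflinks 2.0.2 and the build mm10. How they were run, whether strand was used and how many reads there were is not stated, which leaves the depth unknown and allows no counting intervals. The 345 rows without a usable symbol were named by accession from RefSeq GRCm38.p6 where found. Of 1444 symbols with several rows, 1324 repeat 1 value in the Th2 files and 49 in the others. The rows of a gene were thus filled differently in the Th2 files and in the others. Where a Th2 group is compared with CD4 T cells, that difference cannot be told apart from culture. The highest row stood for a gene.

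Library pairs were compared by the spread of their log2 ratios at rising abundance: the depth this implies varied 9.4-fold in TSA-treated Th2 and 12.1-fold in Th2, but only 1.17-fold to 1.19-fold in CD4 T, B and ES cells. Limma 3.58.1 in R 4.3.3, with a trended prior, was fitted to log2(FPKM + 1) of 7 samples (2 residual degrees of freedom), two-sided, over 12907 genes with at least 1 FPKM in 2 libraries, with Benjamini-Hochberg adjustment and calls below 0.05. Genes at 0 in every Th2 file (467) or every other file (73) were left out against CD4 T cells. Named genes outside the 10 are, per list and comparison, up to 4 called genes with the largest change, the nearest coding neighbours and the 3 most correlated genes. The members and lists were chosen with earlier results of these data known. Alternatives were another pseudocount (0.1), no filter, summed or averaged rows, quantile and median-ratio scaling, 10 separate libraries, a prior without trend, a replicate block, the 4 Th2 samples alone, and each replicate left out. A few genes that the rule for named genes picks are not reported here.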

Additional observations from a re-analysis of the deposited data

How the results depend on the processing

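For TSA-treated against untreated Th2 cells, the 3 checkpoint genes that were higher became 5 after quantile normalization and 6 with 10 libraries as separate samples. All genes called there numbered 1729, against 771 with no filter on low values and 6774 with 10 libraries as separate samples. The share of higher among called genes was 69.1%, and 52.3% after quantile normalization (1125 higher and 1027 lower). With 1 library left out, the number of checkpoint genes higher ranged from 0 to 0 and of all genes called from 0 to 273, a fit with fewer samples. For Th2 against CD4 T cells, 2 checkpoint genes were higher with 10 separate libraries, and all genes called ranged from 3188 to 6790 with 1 library left out. Higher and lower genes numbered 2086 and 4709, against 3442 and 3405 after quantile normalization and 2844 and 3457 after median-ratio scaling. For TSA-treated Th2 against CD4 T cells, 1 checkpoint gene was higher, against 4 after quantile normalization, 2 after median-ratio scaling, 4 with 10 separate libraries and 1 to 2 with 1 library left out. Higher and lower genes there numbered 2495 and 4557, against 3495 and 3698 after quantile normalization and 3094 and 3472 after median-ratio scaling. The cause of these changes was not tested. Same-numbered Th2 libraries deviated together (r = 0.577 over 12907 genes), but 2 pairs do not show that the numbers pair the cultures. With the replicate block, 4 checkpoint genes were higher in TSA-treated Th2 cells, Lag3 being added (limma adjusted p = 0.0485), 6 were lower in Th2 than in CD4 T cells, and 3 were higher and 3 lower in TSA-treated Th2 than in CD4 T cells. No called checkpoint gene reversed its direction under any of these settings. Havcr2, Btla and Cd274 kept their TSA calls under every alternative that left all libraries in, with adjusted p up to 0.0485, 0.0485 and 0.0496. Counts by the size rule stayed within 1.5 times in the comparisons among CD4 T, B and ES cells. As the depth is unknown, levels below 1 FPKM, such as those of Cd160 in Th2 cells, limit what can be compared.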
